A study of Sus scrofa with 12 samples.

Results

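The proteasome subunit genes were examined for chromatin accessibility in pig skeletal muscle. All protein-coding genes of the Sscrofa11.1 annotation whose symbols start with PSMA, PSMB, PSMC, PSMD, PSME, PSMF or PSMG were taken, which gave 49 of 19550 genes. An open chromatin region was assigned to a gene when its midpoint lay in the gene body or within 2 kb of it, which gave 160 of 140081 regions. ATAC-seq, in which a transposase cuts DNA where chromatin is open and the fragments are sequenced, was performed on longissimus dorsi muscle of 3 Duroc and 3 Luchuan male pigs at 180 days of age, kept under the same feeding. Duroc is a lean breed and Luchuan is an obese Chinese breed. The RNA-seq libraries of the series were not used here. The deposited peak table gives 1 read count per breed and interval with no value per animal, so the counts were read as pooled over the pigs of a breed, and no test between animals and no standard deviation could be had. Each comparison below therefore describes 2 pooled samples, and each interval on a ratio covers the counting error of reads only.

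The proteasome degrades proteins that carry ubiquitin chains, and in skeletal muscle it is the main route by which myofibrillar proteins are removed during growth and wasting. Its core particle is a barrel with outer alpha rings, built from PSMA subunits and closing the entrance, and inner beta rings, built from PSMB subunits and holding the proteolytic sites. A regulatory particle with an ATPase base (PSMC subunits) and further PSMD subunits recognises, unfolds and feeds in the substrate. Interferon induces the beta subunits PSMB8, PSMB9 and PSMB10, which take the places of PSMB5, PSMB6 and PSMB7 to form the immunoproteasome, and also the activators PSME1 and PSME2. PSMB11 is the beta subunit of the thymus, and PSMA8 is the alpha subunit of the testis. PSMC3IP shares the prefix but is a meiotic recombination factor and not a subunit, and it was kept apart.

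Nearly all proteasome genes carried open chromatin. At least 1 region was found for 48 of the 49 genes (98.0%), against 81.5% of all 19550 genes. The exception was PSMB11, the thymus subunit, whose nearest region began 7.48 kb away and belonged to PSMB5. A region within 2 kb of a gene end was found for 47 genes (95.9%), against 73.9% of all genes. For 46 genes (93.9%) this region had been called in both breeds, against 65.8% of all genes. PSMA8, the testis subunit, had no region near an end. Its only region, at chromosome 6, positions 110822713 to 110822873, lay inside the gene with 5 Duroc and 9 Luchuan reads. The genes with the lowest accessibility were thus the subunits of the thymus and of the testis, while all 7 genes of the alpha ring (PSMA1 to PSMA7), all 7 of the beta ring (PSMB1 to PSMB7) and all 6 base ATPases had a region at an end. The annotation gives gene ends without strand, so the region with the most reads within 2 kb of either end, called the end region here, stood in for the promoter. It held the annotated end itself in 40 of 47 genes (85.1%, against 64.9% of all end regions), and its midpoint lay a median of 116 bases from that end, against 209 bases. In 13 of 47 genes (27.7%, against 29.6% of all end regions) it also lay within 2 kb of another gene's end. Reads there cannot be divided between the genes.

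The end regions of proteasome genes were of moderate to high accessibility. Their level, as reads per kb averaged over Duroc and scaled Luchuan, had a median of 696, against 602 for the end regions of all genes. The median percentile among all end regions was 63.6 (interquartile range, 44.6 to 78.4), and 30 of 47 lay above the median of all. The level ranged from 243 reads per kb at PSMD6 to 1038 at PSME1. The value of PSMD6, a regulatory particle subunit, comes from a region of 38 Duroc and 26 Luchuan reads, because its strongest region, with 466 and 346 reads, lay 2369 bases inside the gene and so outside the 2 kb limit. By group, the median level was 964 reads per kb for the activators PSME1 and PSME2, 813 for the interferon-inducible beta subunits, 743 for the base ATPases, 725 for the alpha ring, 675 for the other regulatory particle subunits, 615 for the assembly chaperones and 583 for the beta ring. The 3 regions with the most reads belonged to PSME2 (1186 Duroc and 825 Luchuan reads), the beta ring gene PSMB3 (1047 and 679) and PSMB9 (928 and 667).

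**Figure D1:**
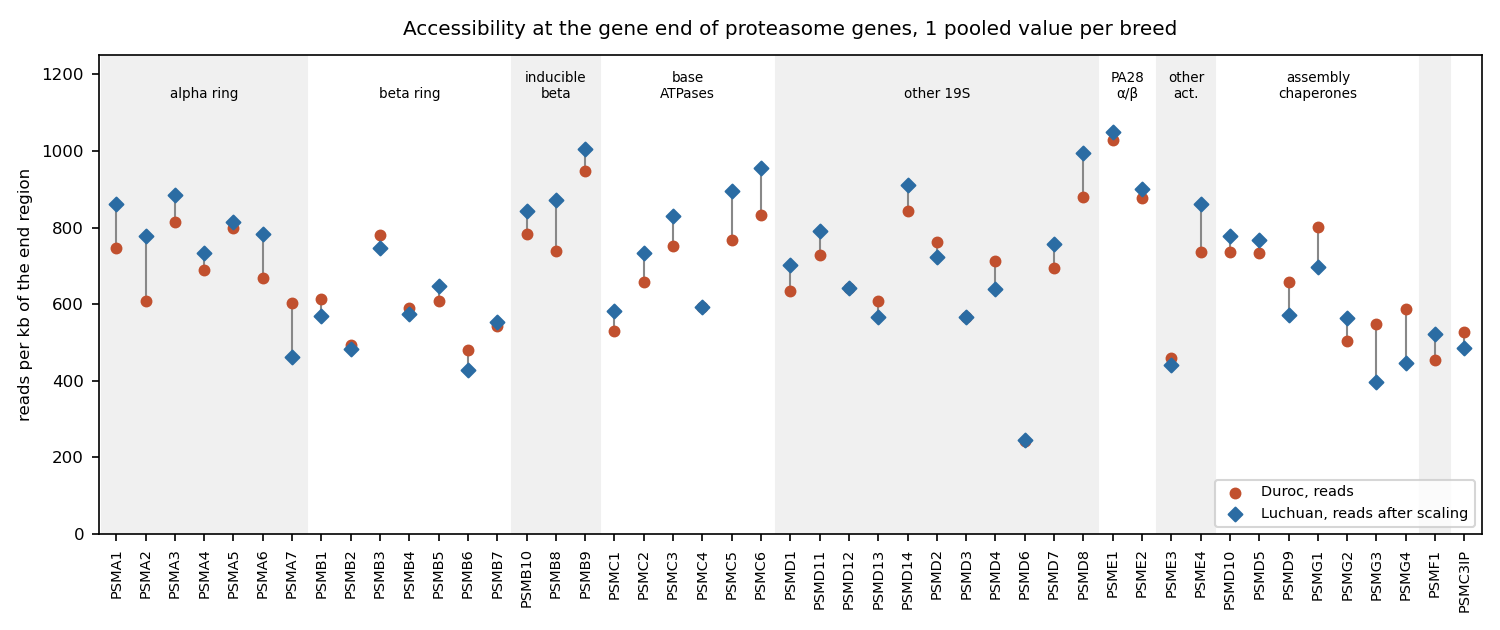
Reads per kb of the end region of 47 proteasome genes, grouped by role, with Duroc as circles and Luchuan, multiplied by the scaling factor, as diamonds; each point is 1 pooled value. All points except those of PSMD6 (243 on average) lie between 396 and 1049 reads per kb, and the values of the breeds differ less than those of the genes.

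Luchuan had fewer reads throughout the table, with 13745993 against 20759996 Duroc reads over all regions, and 143 of the 160 proteasome regions held more Duroc reads before scaling. Luchuan reads were therefore multiplied by 1.48, the factor that sets the median log2 ratio of Luchuan over Duroc to 0 over 68776 regions called in both breeds, after 1 was added to each count. Positive ratios mean more Luchuan reads. Scaling by the study's clean reads in place of this factor moves every ratio by -0.20, and directions below are relative to the common regions.

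On this scale the breeds were close at proteasome genes. Over the 160 regions the median log2 ratio was 0.02 (interquartile range, -0.25 to 0.20), against -0.01 (-0.34 to 0.32) over all regions. The reads of all proteasome regions together gave 0.02 (95% counting interval, -0.0024 to 0.043), from 39132 Duroc and 26889 Luchuan reads. At the end regions the median was 0.06, against 0.05 for all genes, and all 47 lay within 1.5-fold, against 91.1% of all end regions. This background was not matched for reads. The lower quartile of the 47 was 472.5 Duroc and 311 Luchuan reads, against 213.25 and 137 for all end regions. Among all regions, those in a bin with a median of 235 reads had 5th to 95th percentiles of -1.13 to 0.63. In a bin with a median of 836 reads these were -0.45 to 0.33. Whether proteasome end regions differ less than others of equal depth was not tested. The ratios of the 47 ranged from -0.46 at PSMG3 to 0.36 at PSMA2. The counting interval lay off 0 for 5 end regions higher in Duroc, which is 10.6% beside a background of 11.7% over all genes, and for 8 higher in Luchuan, 17.0% beside 20.1%. For the reads summed per gene it lay off 0 for 9 genes higher in Duroc (18.8%, background 22.4%) and 8 higher in Luchuan (16.7%, background 21.8%), so these counts were not above the level of the genome.

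The regions split by size. The 94 regions called in both breeds (58.75%, beside 49.1% of all regions) held a median of 650 reads, against 263 for all such regions. They ranged from -0.62 to 0.68, none past 2-fold. All regions in a depth bin with a median of 575 reads had 5th to 95th percentiles of -0.69 to 0.42. The share of all regions called in both breeds that lay past 2-fold was not computed. Another 45 proteasome regions (28.1%, beside 31.8% of all regions) were called in Duroc only and 21 (13.1%, beside 19.1%) in Luchuan only. They held medians of 45 and 44 reads. Among all 160, 14 regions (8.75%) were at least 2-fold higher in Duroc, beside a background of 5.34%, and 1 (0.625%, that of PSMA8) was at least 2-fold higher in Luchuan, beside 7.41%. Of the 14, 5 lay in a single gene, PSMB2. With at least 50 reads, 10 of 120 (8.33%) were higher in Duroc, beside 5.22%, and 0 in Luchuan, beside 2.45%. The counting interval lay off 0 for 22 regions higher in Duroc (13.8%, background 15.7%) and 14 higher in Luchuan (8.75%, background 13.4%). A difference of 4-fold or more, all higher in Duroc, was found in 5 regions (3.13%), beside a background of 0.609%, and 3 of these 5 lay in 1 gene, PSMB2. In this whole-tissue assay, a difference in the share of a cell type and a difference in accessibility per nucleus cannot be told apart.

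**Figure D2:**
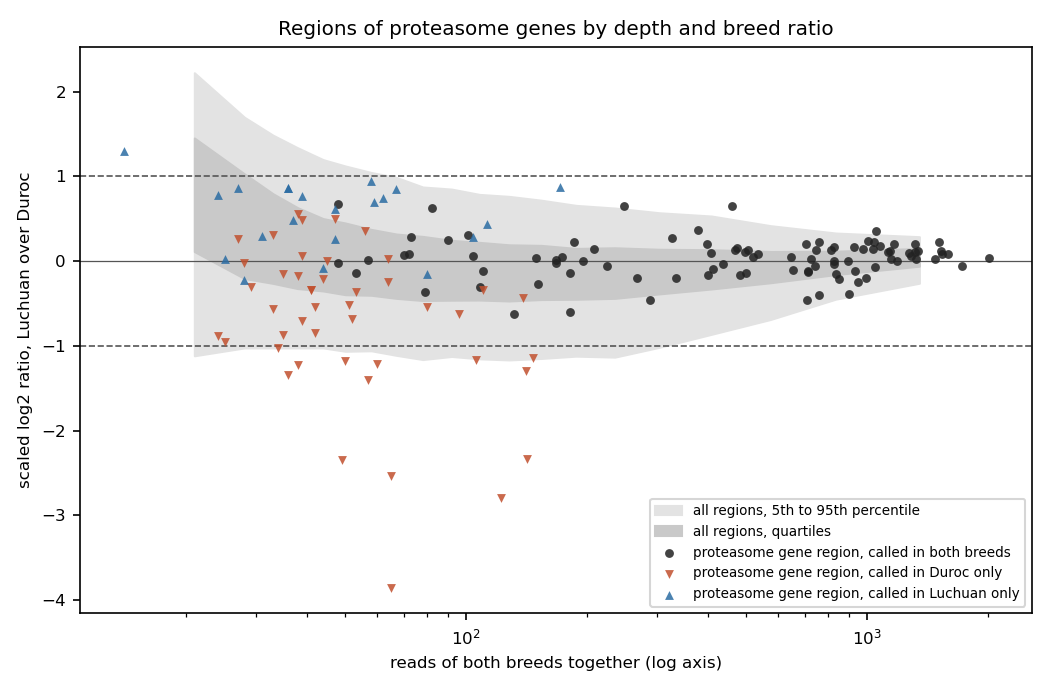
Scaled log2 ratio of Luchuan over Duroc against the reads of both breeds together (log axis) for the 160 regions of proteasome genes, marked by the breed in which they were called; grey bands give the percentiles of all 140081 regions in bins of reads, and dashed lines mark 2-fold. The 70 regions with 200 or more reads lie between -0.46 and 0.65, and the 14 regions below the lower dashed line were all called in Duroc only.

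Within the core particle, the alpha ring as a whole was close to the common regions, and its genes went in both directions. The reads of its 21 regions gave a log2 ratio of 0.04 (-0.01 to 0.10). This moved off 0 in either direction with the processing, to 0.07 (0.02 to 0.13) with total reads, 0.11 (0.04 to 0.17) for end regions only and -0.15 (-0.21 to -0.10) with clean reads. PSMA2 was the highest, with 564 Duroc and 490 Luchuan reads in its end region and a ratio of 0.36 (0.18 to 0.54). PSMA7 was the lowest, with 594 and 307 reads and -0.39 (-0.59 to -0.19). These intervals do not overlap, but both genes were picked as the extremes of the ring, which favours such a gap. Each of these end regions also lay at the end of a neighbouring gene, MRPL32 for PSMA2 and SS18L1 for PSMA7, and the reads cannot be divided between them. PSMA6 (0.23, 581 and 462 reads) and PSMA1 (0.21, 654 and 511 reads) were also above 0 beyond counting error, and the other 3 alpha genes were not. Over all genes, 20.1% of end regions were above 0 beyond counting error and 11.7% below. Scaled by clean reads, 0 end regions of proteasome genes were above 0 beyond counting error. That scaling moves every ratio by -0.20, and the share of all end regions under it was not computed.

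The beta ring had more Duroc reads, most of all at PSMB2. Over its 28 regions the ratio was -0.08 (-0.14 to -0.02), or -0.05 (-0.11 to 0.01) when scaled by total reads, and without PSMB2 it was 0.0020 (-0.06 to 0.06). The 7 end regions were all within counting error, from -0.16 at PSMB6 to 0.09 at PSMB5, which carry the caspase-like and the chymotrypsin-like sites. PSMB2, a beta subunit without a proteolytic site, had the lowest gene sum of all proteasome genes, at -0.89 (-1.11 to -0.69) from 695 Duroc and 253 Luchuan reads. PSMB3 was also below 0 beyond counting error, with a sum of -0.13 (-0.24 to -0.01) from 1650 Duroc and 1024 Luchuan reads. With total reads that sum was -0.09 (-0.21 to 0.02). PSMB7, which carries the trypsin-like site, had the highest sum of the ring, at 0.20 (0.07 to 0.32) over 11 regions. The ring's value without PSMB2 thus combines PSMB3 and PSMB7, which went in opposite directions. Scaled by clean reads, the sum of PSMB7 was 0.0019 (-0.12 to 0.12). Its end region gave 0.03 (428 and 295 reads). A region 16.2 kb inside the gene, at chromosome 1, positions 265218812 to 265219543, held 223 Duroc and 238 Luchuan reads, a ratio of 0.65 (0.39 to 0.93).

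The inducible beta subunits had more Luchuan reads than the common regions as a group. Their 6 regions gave 0.12 (0.03 to 0.21), which becomes -0.07 (-0.16 to 0.01) when scaled by clean reads. PSMB8 had 558 Duroc and 446 Luchuan reads in its end region (0.24, 0.06 to 0.42), PSMB9 had 928 and 667 (0.09, -0.06 to 0.23) and PSMB10 had 651 and 475 (0.11, -0.07 to 0.28). Only PSMB8 was thus beyond counting error. The end regions of PSMB8 and PSMB9 lie at chromosome 7, positions 25061946 to 25062700 and 25071509 to 25072487, on both sides of TAP1, the peptide transporter gene of antigen presentation. Each is within 2 kb of an end of TAP1 as well. The group exceeded the beta ring by 0.20 on the log2 scale (0.10 to 0.30), which no single scaling factor can change, and by 0.12 (0.01 to 0.22) without PSMB2. When regions were scaled within bins of signal, the difference was 0.16 (0.06 to 0.27) and the group itself 0.09 (0.0030 to 0.18).

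The end region of each inducible gene was more accessible than that of the subunit it replaces, in both breeds. The end regions of PSMB8, PSMB10 and PSMB5 did not hold the annotated end, with midpoints 656, 1055 and 367 bases from it. A further region of PSMB5, with 269 Duroc and 200 Luchuan reads, held its end, at 590 reads per kb on average. No interval was computed for the differences in level. PSMB9 had 948 reads per kb in Duroc and 1005 in Luchuan, against 480 and 428 for PSMB6, a 2.15-fold difference on average. PSMB10 had 783 and 844, against 543 and 552 for PSMB7 (1.48-fold). PSMB8 had 739 and 872, against 609 and 647 for PSMB5 (1.28-fold). The breed ratios of the pairs were not separable. Inducible minus constitutive, they differed by 0.15 for PSMB8 (-0.16 to 0.46), 0.25 for PSMB9 (-0.08 to 0.57) and 0.08 for PSMB10 (-0.19 to 0.36). The leukocyte genes PTPRC, CD3E, CD14, CSF1R, LYZ and CD79A, which mark a cell type that expresses these subunits, had an end region in 4 of 6 cases, at 103 to 503 reads per kb. CSF1R and LYZ had none. Together the 4 gave -0.05 (-0.28 to 0.17), mostly from CD14 (286 Duroc and 173 Luchuan reads, -0.16). CD3E, the T cell gene, went the other way with 13 and 21 reads (1.21, 0.19 to 2.37). Their part in the values of the inducible genes was not tested.

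**Figure D3:**
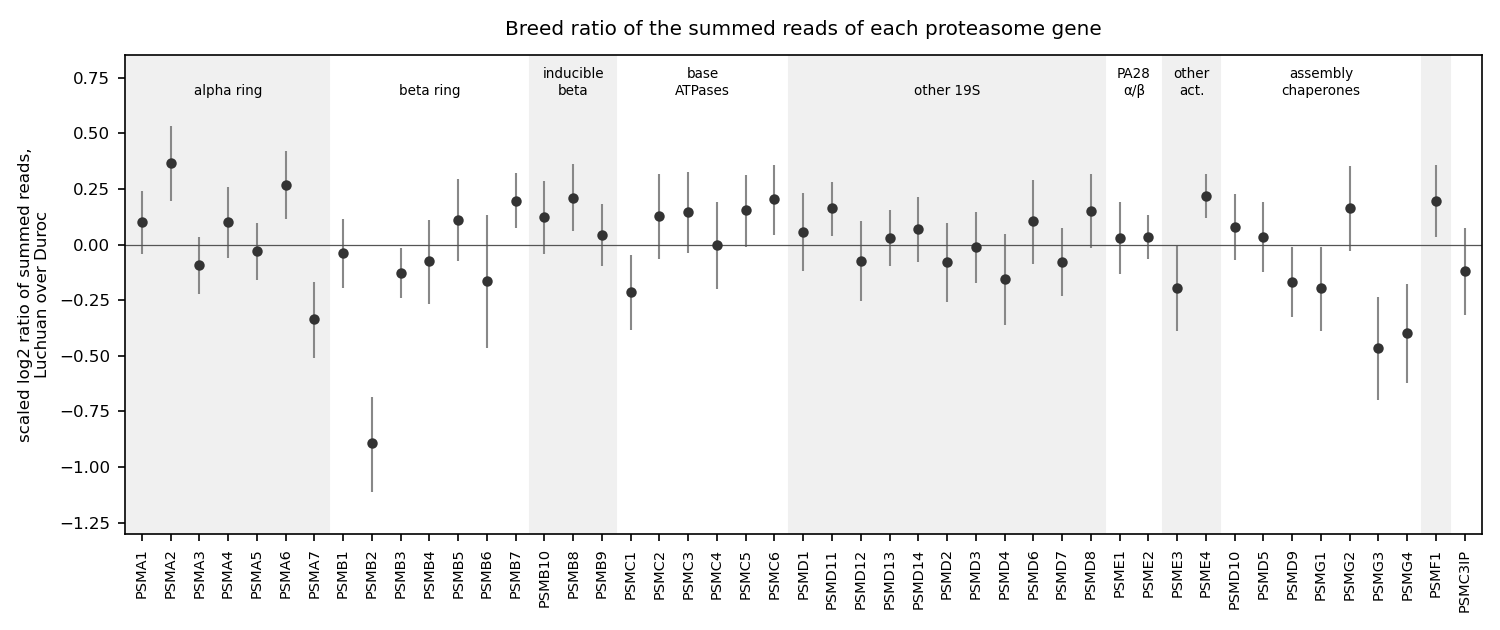
Scaled log2 ratio of Luchuan over Duroc of the reads summed over the regions of each gene, with 95% counting intervals, for the 47 genes with at least 50 reads, grouped by role. PSMB2, at -0.89, lies apart from the rest, which range from -0.46 to 0.37; scaling by clean reads would move every point by -0.20 and put PSMD11 and PSMF1, whose intervals lie above 0 here, just below 0. PA28 marks PSME1 and PSME2.

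In the regulatory particle, differences were small. The base ATPases, which unfold substrates, gave 0.07 (0.00015 to 0.14) over 13 regions, and -0.12 (-0.20 to -0.05) when scaled by clean reads. PSMC6 had the highest gene sum, 0.20 (0.04 to 0.36), and PSMC1 the lowest, -0.21 (-0.39 to -0.05). Scaled by clean reads, the sum of PSMC6 was 0.0070 (-0.15 to 0.16). The end region of PSMC1 alone, with 427 Duroc and 318 Luchuan reads, gave 0.14 (-0.08 to 0.35), so the lower sum of this gene came from its other regions. The 11 other regulatory particle genes gave 0.03 (-0.02 to 0.08) over 45 regions. Among these, gene sums ranged from -0.15 (-0.36 to 0.05) at PSMD4, a ubiquitin receptor, to 0.16 (0.04 to 0.28) at PSMD11, a lid subunit, which is -0.03 when scaled by clean reads. PSMD14, the deubiquitinating enzyme of the lid, had 760 Duroc and 556 Luchuan reads in its end region (0.11, -0.05 to 0.27), and the scaffold subunits PSMD1 (0.15) and PSMD2 (-0.07) were within counting error too.

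The interferon-inducible activators PSME1 and PSME2 were the most accessible group and showed nearly the same value in both breeds. PSME1 had 781 Duroc and 540 Luchuan reads in its end region (0.03, -0.13 to 0.19) and PSME2 had 1186 and 825 (0.04, -0.09 to 0.17). The level of PSME1 was 2.30-fold that of PSME3, the nuclear activator, and 1.30-fold that of PSME4, the activator linked to acetylated histones. PSME2 was at 1.97-fold and 1.11-fold of these. PSME4 had 23 regions, the most of any proteasome gene. Its gene sum was 0.22 (0.12 to 0.32), or 0.16 (0.06 to 0.26) when regions were scaled within bins of signal. Scaled by clean reads it was 0.02 (-0.08 to 0.12). Without its end region, shared with ACYP2, the sum was 0.21 (0.08 to 0.35) on the main scale. Luchuan reads were more frequent than the common regions give in 3 regions called in Luchuan only, with 76 and 95, 30 and 37, and 25 and 33 Duroc and Luchuan reads. Regions called in Luchuan only had a median of 0.77 over the whole genome. PSME3 had the opposite direction, -0.19 (-0.39 to -0.004), with an end region at -0.06. PSME3 and PSME4 together gave 0.13 (0.04 to 0.22), or -0.07 when scaled by clean reads. PSMF1, an inhibitor of the core particle, gave 0.19 (0.03 to 0.36) over 4 regions, or -0.0011 when scaled by clean reads.

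The assembly chaperones, which build the particle but are not part of it, had more Duroc reads. Their 12 regions gave -0.09 (-0.16 to -0.03), and the direction was the same under each scaling tried, although the interval reached 0 with total reads (-0.06, -0.13 to 0.01). The end regions of 4 of the 7 genes were higher in Duroc beyond counting error, beside 11.7% of all end regions. PSMG3 had 475 Duroc and 233 Luchuan reads (-0.46, -0.70 to -0.24), the lowest of all 47 end regions, and PSMG4 had 502 and 258 (-0.40, -0.62 to -0.18). PSMD9, a chaperone of the ATPase base, had 535 and 314 (-0.21, -0.41 to -0.0036), and PSMG1 had 626 and 370 (-0.20, -0.39 to -0.01). The gene sums of PSMD9 (-0.13, -0.29 to 0.02) and PSMG1 (-0.16, -0.35 to 0.02), where PSMG1 has only its end region, no longer lay off 0 when scaled by total reads. PSMG2, the partner of PSMG1 in alpha ring assembly, went the other way with 526 and 399 reads (0.16, -0.03 to 0.35). PSMD10 (0.08) and PSMD5 (0.06) were within counting error. The end regions of PSMG1, PSMG2 and PSMD5 also lay at an end of BRWD1, CEP76 and LOC102164650, respectively. Their reads cannot be divided between the genes. PSMC3IP, the gene taken by its prefix only, gave -0.12 (-0.31 to 0.07).

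Large breed differences were found only in small regions called in Duroc only, apart from the 14 reads of PSMA8. A call in 1 breed favours regions with more reads in that breed, so a lean to Duroc is in part set by the call. Regions called in Duroc only had a median of -0.36 over the whole genome and -0.55 among proteasome genes. The 14 regions at least 2-fold higher in Duroc belonged to 8 genes, with 5 in PSMB2, 2 each in PSMA3 and PSMC1, and 1 each in PSMD1, PSMD7, PSMD12, PSME3 and PSME4. Of these, 8 lay further than 2 kb from both gene ends. None was an end region, which by its definition has the most reads near an end. The end regions of these genes were between -0.06 and 0.22.

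PSMB2 held the clearest case. Inside the gene on chromosome 6, 4 regions formed 2 neighbouring pairs. In the pair with lower coordinates, positions 91806130 to 91806307 had 39 Duroc and 11 Luchuan reads (-1.18, -2.38 to -0.27), and positions 91806470 to 91806781 had 126 and 16 (-2.34, -3.27 to -1.66). In the other pair, positions 91810914 to 91811236 had 112 and 10 reads (-2.80, -4.02 to -1.99), and positions 91811283 to 91811476 had 44 and 5 (-2.35, -4.27 to -1.25). The gaps within the pairs were 162 and 46 bases, and 4132 bases lay between the pairs. Together these 4 regions had 321 Duroc and 42 Luchuan reads, a ratio of -2.34 (-2.87 to -1.91). The fifth, just beyond the gene end at positions 91830340 to 91830649, had 82 and 24 reads (-1.17, -1.93 to -0.54). The end region, with 263 and 174 reads, was at -0.03 (-0.32 to 0.25). A small region between these last regions, with 29 and 13 reads, was at -0.54 (-1.66 to 0.39).

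**Figure D4:**
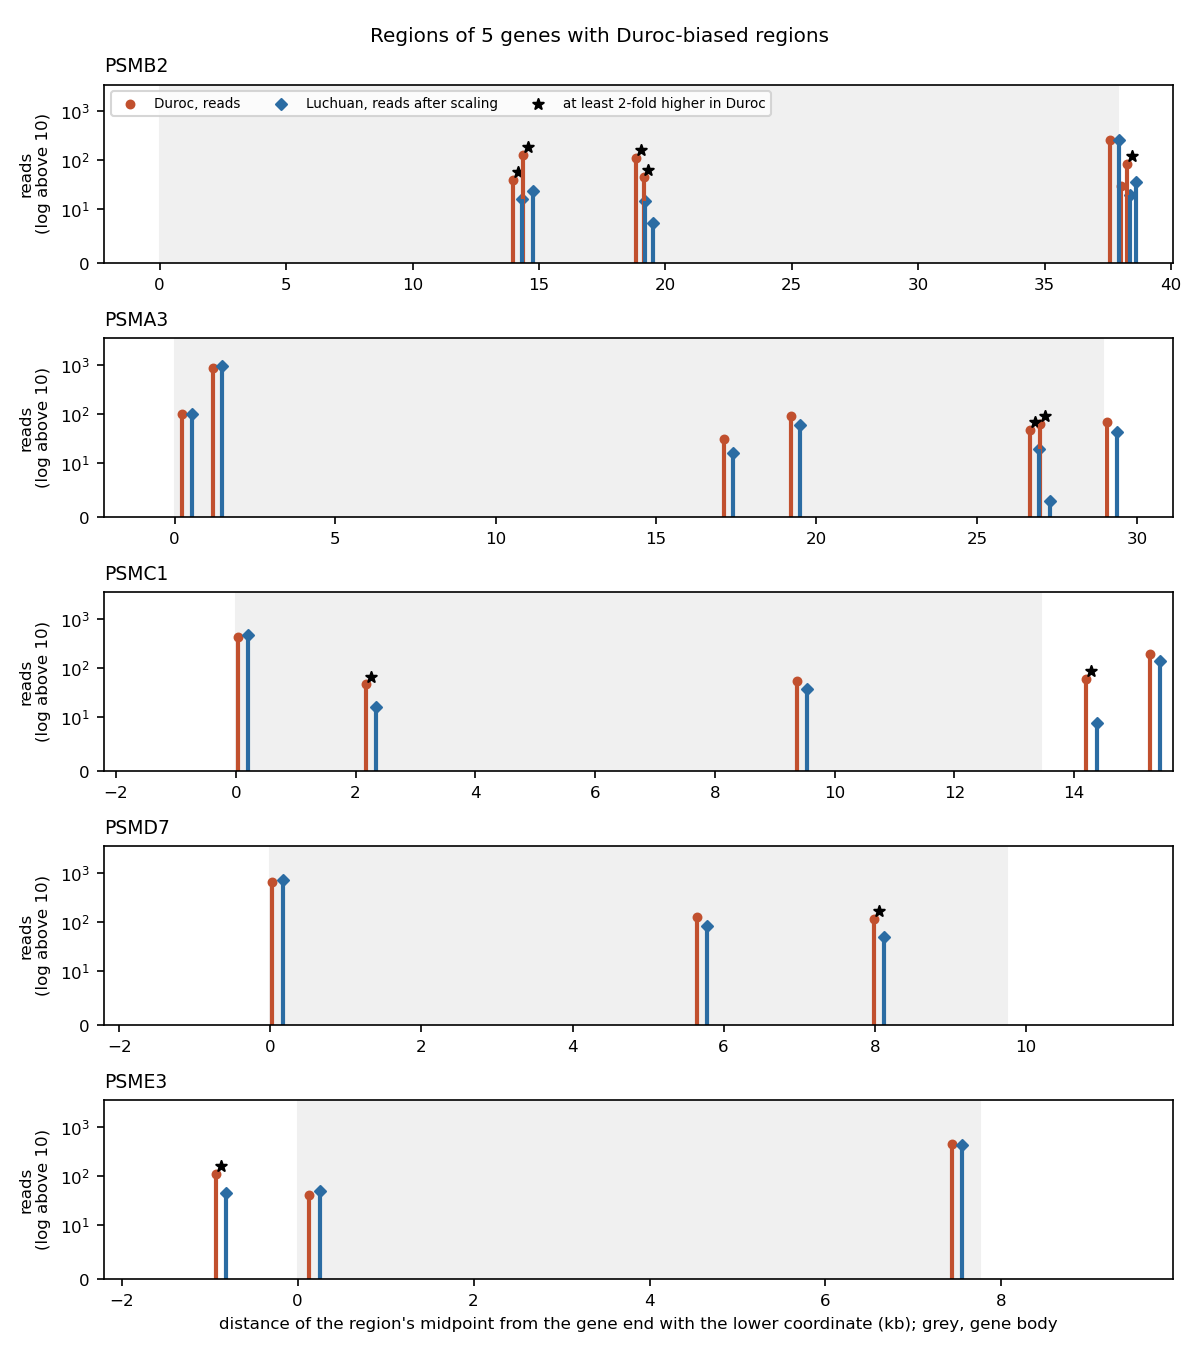
Reads per region along PSMB2, PSMA3, PSMC1, PSMD7 and PSME3, with distance in kb from the gene end of lower coordinate on the x axis and reads on the y axis (logarithmic above 10); the Luchuan bar, scaled, is drawn slightly right of the Duroc bar, and stars mark regions at least 2-fold higher in Duroc. In each gene the tallest pair of bars, the end region, is nearly equal between breeds, and the starred regions lie apart from it with fewer reads.

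In the other genes the end region was also near 0, and further regions leaned to Duroc to differing degrees. In PSMA3, an alpha ring gene on chromosome 1, positions 187369229 to 187369469 had 63 Duroc and 2 Luchuan reads, the lowest ratio of all proteasome regions (-3.85, -7.49 to -2.50), and the neighbour at 187368931 to 187369131 had 47 and 13 (-1.22, -2.30 to -0.38). The end region of PSMA3, with 881 and 650 reads, was at 0.12 (-0.03 to 0.27). A region called in both breeds inside the gene, with 92 and 40 reads, was at -0.62 (-1.21 to -0.09). In PSMC1, on chromosome 7, positions 112042087 to 112042305 beyond the gene end had 59 and 6 reads (-2.54, -4.24 to -1.53), and positions 112030076 to 112030266 inside it had 46 and 11 (-1.41, -2.60 to -0.53). A region called in both breeds beyond the end, with 193 and 95 reads, was at -0.45 (-0.83 to -0.10). PSMD7, a lid subunit gene on chromosome 6, had 113 and 34 reads at positions 17055328 to 17055624 (-1.14, -1.77 to -0.61), and 126 and 56 at a region further inside (-0.59, -1.09 to -0.14). Its end region was at 0.12 (-0.05 to 0.30). PSME3, on chromosome 12, had 111 and 30 reads at positions 20027062 to 20027419 (-1.29, -1.96 to -0.73). This region lay outside the gene and also within 2 kb of another gene's end. The remaining 3 regions, in PSMD1, PSMD12 and PSME4, held fewer than 50 reads each. Reads of both breeds were aligned to Sscrofa11.1, the assembly of a Duroc pig. Lower accessibility in Luchuan and Luchuan sequence that does not align to this assembly cannot be told apart in these counts.

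Other genes of the ubiquitin-proteasome pathway were counted as a list. Of 29 listed genes, among them ubiquitin genes, the activating enzymes UBA1 and UBA6, shuttle factors and NFE2L1, a transcription factor of proteasome genes, 26 were found and 24 had an end region, all called in both breeds. The median ratio of these end regions was 0.02 and 0 were past 2-fold. Over all genes, 13953 of 14438 end regions lay within 2-fold. Beyond counting error, 2 of 24 were higher in Duroc (UBA1, -0.49, and UBB, -0.28), beside the 11.7% of all end regions, and 7 were higher in Luchuan, beside 20.1%. Gene sums had the opposite balance, with 10 of 25 higher in Duroc and 5 in Luchuan and a median of -0.03, beside 22.4% and 21.8% of all genes. Of 9 antigen presentation genes, all had an end region, with a median of 0.09. That median is the value of TAP1, whose end region is that of PSMB9, and the end region of TAP2 (270 and 203 reads) is the other region of PSMB8, so the list is not separate from the proteasome genes. Beyond counting error, 1 of the 9 was higher in Duroc, beside 11.7% of all end regions, and 2 were higher in Luchuan, beside 20.1%. The gene higher in Duroc was CIITA, the activator of class II genes (-0.87), at a region of 118 and 43 reads called in Duroc only. Those higher in Luchuan were B2M (0.44) and IRF1 (0.24). All 6 skeletal muscle fibre genes found (ACTA1, CKM, MYLPF, TNNT3, TNNC2 and MYH7) had end regions called in both breeds, at 713 to 1272 reads per kb. Together they gave -0.25 (-0.29 to -0.20), but they differed. Beyond counting error, 3 of the 6 were higher in Duroc, beside 11.7% of all end regions. These were MYLPF (-0.48), MYH7 (-0.36) and TNNT3 (-0.33). ACTA1 (0.07), CKM (-0.09) and TNNC2 (-0.07) were within counting error. The endothelial gene PECAM1 (0.01) and the adipocyte gene PLIN1 (0.31, -0.19 to 0.79) were within counting error. The part of fibre content in the proteasome values was not tested.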

How the data were processed

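ATAC-seq of longissimus dorsi from 3 Duroc and 3 Luchuan pigs was used. Per the labels and methods, the authors trimmed reads (Trimmomatic 0.36), mapped these with Bowtie2 to the Sscrofa11.1 genome and called peaks with MACS2. The authors deposited raw read counts, 1 per breed for each of 217213 intervals, unscaled. Handling of duplicates, transposase offset and pooling is not given in the sources used here. Deposited columns of fold change, mean signal and P hold the authors' own comparison and were not used.

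Overlapping or adjoining common intervals were merged, the longest standing for the region, which left 140081. Starts were taken to count from 0, since the shortest interval then has 150 bases, and are printed counted from 1. Genes came from RefSeq's table of Sscrofa11.1, without strand or exons. Ratios were log2 of counts plus 1, with Luchuan scaled. Their 95% intervals are Clopper-Pearson intervals for the share of Luchuan among a region's reads, and those of differences between ratios are normal approximations. No molecular identifiers were used, so reads need not be independent molecules and intervals cover counting error only.

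Members and lists were chosen with earlier results of these data known. Some genes of the lists are not reported here. Values were given by rule for the inducible genes and their counterparts, the highest and lowest gene sum of each group, regions past 2-fold with at least 50 reads and the 3 regions with most reads. Other genes and regions with values of their own, and the 4-fold limit, were chosen after values had been seen. The planned motif search was not run, as no genome sequence was used here. Software was Matplotlib 3.10.9, SciPy 1.17.1, pandas 2.3.3 and NumPy 2.4.6, under Python 3.11.15.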

Additional observations from a re-analysis of the deposited data

How the results depend on the processing

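No paired analysis was possible because the counts are pooled per breed and carry no replicate, and for the same reason no replicate could be left out. The scaling decided most directions near 0. Scaling by the total reads of all regions moved every ratio by 0.033 and gave medians of 0.052 for regions, 0.067 for gene sums and 0.097 for end regions, with 5 gene sums and 3 end regions higher in Duroc. Scaling by the study's clean reads moved every ratio by -0.20, and the median of all regions to -0.20. The medians became -0.18, -0.16 and -0.13, with 26 gene sums higher in Duroc and 1 in Luchuan, and 18 end regions in Duroc and 0 in Luchuan. The sums of the base ATPases (-0.12), the inducible beta subunits (-0.074), PSME3 with PSME4 (-0.066), PSMF1 (-0.0011) and PSMD11 (-0.033) then changed sign, as did those of the alpha ring (-0.15), the other regulatory particle genes (-0.16) and PSME1 with PSME2 (-0.16), which were within counting error of 0 before and off 0 then. Scaling within 20 bins of mean signal gave medians of -0.015, -0.012 and 0.029. Regions 2-fold higher in Duroc numbered 13 to 18 under these scalings, and those 4-fold higher 5 under each. Counting every deposited interval moved the alpha ring to 0.05 (0.01 to 0.09), gave a gene median of 0.061 with 13 genes higher in Luchuan, and moved PSMB2 to -0.60. The gene body alone gave 0.049 for regions and 0.057 for genes, with 3 genes higher in Duroc. At least 50 reads left 0 regions 2-fold higher in Luchuan, and a 10 kb flank gave 2. A 1.5-fold limit gave 23 regions in Duroc and 16 in Luchuan. Shares over all genes and regions were computed at the main settings and for at least 50 reads only. Other counts in this section have none beside them. Without PSMB2, left out after its values had been seen, 9 regions were 2-fold and 2 were 4-fold higher in Duroc, and the beta ring sum changed sign to 0.0020. A pseudocount of 0.5 and the region nearest to an end, the latter also chosen after seeing the data, moved no median or count of calls past these limits. The difference between the inducible beta subunits and the beta ring kept its direction under the scalings, the pseudocount, every deposited interval, gene body, 10 kb flank, end regions only and without PSMB2, with 0.12 to 0.23, and was not computed under the others. The causes of the changes were not tested. Small regions limit what can be seen, since the single region of PSMA8 has an interval from -0.32 to 3.33.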
